A study of Homo sapiens with 9 samples.

Results

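SESN1, SESN2 and SESN3, the 3 human sestrin genes, and DDIT4, which encodes the stress protein also called REDD1, were followed through treatment of a breast cancer line with the bromodomain inhibitor JQ1. These 4 genes of the 14884 named genes measured were chosen by name, with earlier results of the same arrays known. Each had 1 row on the array, so that choosing the row with the highest mean per gene settled nothing for them. The cells were MDA-MB-231, an established triple-negative breast cancer line, a class defined by the absence of both hormone receptors and of HER2 overexpression. Controls received no agent and were taken at time 0 (3 samples), and the other samples received 500 nM JQ1 for 12 h (3 samples) or for 24 h (3 samples). JQ1 blocks the bromodomains with which BET proteins hold acetylated histones. All cells were grown in DMEM with serum, and total RNA was measured on Affymetrix Human Gene 2.0 ST arrays, 1 per sample. A change in RNA per cell and a change in the share of cells that express a gene cannot be told apart in such RNA. The labels name no vehicle and no untreated sample at 12 h or 24 h, so that JQ1, solvent and time in culture cannot be told apart. Whether the replicates came from separate cultures is not stated, and the p-values describe only how far these samples spread, which may be technical.

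Sestrins and DDIT4 restrain mTORC1, the kinase complex that drives protein synthesis and growth when amino acids and growth factors are at hand, and they do so at different points. Sestrins bind GATOR2 and relieve its hold on GATOR1, which switches off the RAG GTPases that bring mTORC1 to the lysosome; SESN2 is also a leucine sensor that lets go of GATOR2 when leucine binds. DDIT4 acts through the TSC complex, the inhibitor of the mTORC1 activator RHEB. SESN2 and DDIT4 are known targets of ATF4, the transcription factor of the integrated stress response, DDIT4 is also induced by hypoxia and glucocorticoids, SESN3 by FOXO factors, and SESN1 and SESN2 by p53. The arrays measured RNA and not mTORC1 activity.

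Values are the deposited log2 values, in which 1 unit is a 2-fold difference, and probe sets differ in their response, so a percentile across genes is only a rough description of level. Array medians lay between 4.92 and 4.96. Control 3 stood apart from the other controls. Across all rows its values differed from those of controls 1 and 2 with SDs of 0.385 and 0.389, while controls 1 and 2 differed from each other with an SD of 0.213. From the JQ1 arrays, control 3 differed with SDs between 0.3145 (JQ1 12 h replicate 2) and 0.4043 (JQ1 24 h replicate 3). Some JQ1 arrays were thus nearer to control 3 than the other controls were, and the cause was not tested. Control 3 was over 1 log2 lower than the mean of controls 1 and 2 for 261 genes and over 1 log2 higher for 201. The study's 9 arrays, 3 per group, limit the precision. By such percentiles of the named genes, the mesenchymal markers VIM, CD44 and ZEB1 lay at 98.4, 72.6 and 65.7, and the receptors ESR1 and PGR at 30.6 and 15.9. The epithelial and luminal markers KRT18, GATA3 and EPCAM lay at 97.6, 59.4 and 52.3, and the endothelial marker PECAM1 at 18.6.

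The sestrins differed in direction. SESN3 and SESN1 were higher on all JQ1 arrays than on all controls, whereas SESN2 was lower on the JQ1 arrays than in controls 1 and 2 and higher than in control 3. DDIT4 was lower than in controls 1 and 2 on all 6 JQ1 arrays, higher than in control 3 on all of them, and higher at 24 h than at 12 h. By limma, adjusted over all 14884 genes and called at an adjusted p under 0.05, SESN3 and SESN1 were called at 12 h, both higher, which made 2 of the 4 genes; 7.93% of all genes were called, 3.54% higher and 4.39% lower. At 24 h the same 2 were called, again higher, against 11.5% of all genes, 5.17% higher and 6.34% lower. Both comparisons use the same 3 controls. Since the 4 genes were proposed with these differences known, their adjusted p-values place them among all genes and are no independent support.

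**Figure D1:**
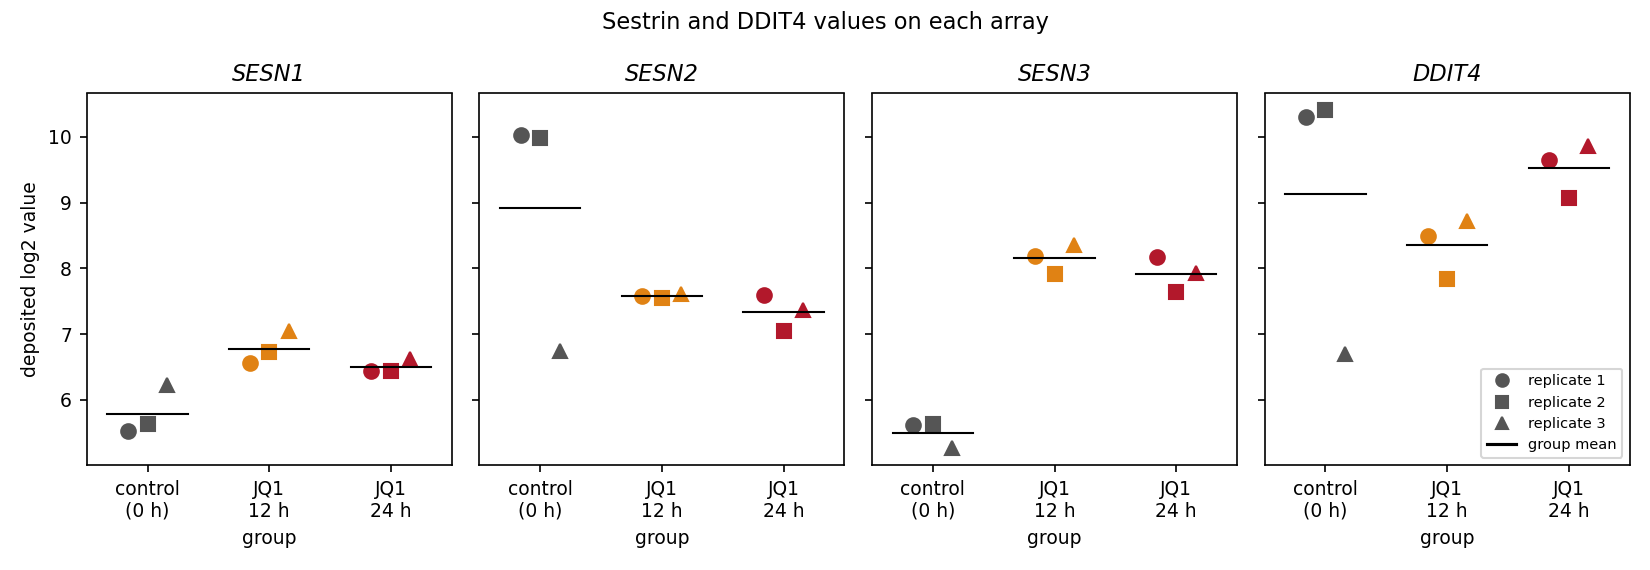
Deposited log2 values of SESN1, SESN2, SESN3 and DDIT4 (vertical axis) on each of the 9 arrays by group (horizontal axis); symbols mark replicates and the bars the group means. Control 3 lies at 6.74 for SESN2 and 6.70 for DDIT4, below every other array, and does not stand above the JQ1 arrays for any of the genes.

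The RefSeq sequence around each annotated start, from 250 bases before it to 50 after, is shown to let the 4 genes be compared where transcription begins (build GRCh38.p14, 5′ to 3′ on the gene's strand). Capitals mark matches, on either strand, to the CCAAT box (CCAAT), the hypoxia response element (ACGTG) or the antioxidant response element (TGACNNNGC); no 2 of these overlapped. SESN2 and DDIT4, which share low values in control 3, each held 2 CCAAT boxes, and DDIT4 held 1 hypoxia response element. SESN3 held none of the motifs searched and is shown for the contrast. SESN1 has 3 annotated starts, and the middle one, with 1 CCAAT box and 1 antioxidant element, is printed.
SESN2, chr1:28259268-28259567, plus strand: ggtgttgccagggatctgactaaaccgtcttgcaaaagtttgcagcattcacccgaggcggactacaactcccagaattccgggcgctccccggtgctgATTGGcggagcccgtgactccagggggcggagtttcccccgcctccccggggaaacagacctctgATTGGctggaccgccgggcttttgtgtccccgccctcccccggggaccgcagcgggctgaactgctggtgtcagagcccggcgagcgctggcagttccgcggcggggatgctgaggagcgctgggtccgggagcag
DDIT4, chr10:72273674-72273973, plus strand: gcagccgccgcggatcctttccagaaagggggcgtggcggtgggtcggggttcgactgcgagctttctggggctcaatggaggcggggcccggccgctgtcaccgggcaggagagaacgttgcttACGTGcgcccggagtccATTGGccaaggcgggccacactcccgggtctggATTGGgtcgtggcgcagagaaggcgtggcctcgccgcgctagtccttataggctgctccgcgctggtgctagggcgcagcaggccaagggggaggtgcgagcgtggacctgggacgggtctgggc
SESN3, chr11:95232426-95232725, minus strand: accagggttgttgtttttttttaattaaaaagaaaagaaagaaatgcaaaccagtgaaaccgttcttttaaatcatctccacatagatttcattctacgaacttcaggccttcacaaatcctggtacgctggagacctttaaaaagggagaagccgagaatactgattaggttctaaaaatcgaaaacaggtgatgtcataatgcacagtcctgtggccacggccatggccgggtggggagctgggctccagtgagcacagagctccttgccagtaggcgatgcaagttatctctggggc
SESN1, chr6:109009503-109009802, minus strand: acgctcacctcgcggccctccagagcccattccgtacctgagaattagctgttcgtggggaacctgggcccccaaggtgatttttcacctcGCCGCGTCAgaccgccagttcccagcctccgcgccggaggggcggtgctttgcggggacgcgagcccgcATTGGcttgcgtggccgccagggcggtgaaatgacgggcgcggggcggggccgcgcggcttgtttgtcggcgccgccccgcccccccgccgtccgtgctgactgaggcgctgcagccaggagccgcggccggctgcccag

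Of 35116 such windows in the RefSeq table, 34.6% held a CCAAT box, 21.4% ACGTG and 13.3% TGACNNNGC, so that none of these matches is rare. Counted from the start, the CCAAT boxes lay at -151 and -86 in SESN2, at -108 and -75 in DDIT4 and at -90 in the printed SESN1 window. ACGTG lay at -125 in DDIT4, and TGACNNNGC at -159 in SESN1. The GC box GGGCGG, left in lower case and present in 45.0% of windows, occurred 2 times in the SESN2 window and 5 times in the printed SESN1 window. The C/EBP-ATF response element (TGATGNAA), which ATF4 binds with a C/EBP partner, was in 3.6% of windows, the forkhead element (GTAAACA) in 3.4%, the AP-1 element (TGANTCA) in 7.7%, the cAMP response element (TGACGTCA) in 1.8% and the TATA box (TATAAA) in 11.5%; none of these 5 was in any window of the 4 genes. The windows also differed in CpG dinucleotides, with 8 in SESN3 against 25 in SESN2, 30 in DDIT4 and 38 in the printed SESN1 window (median of all windows 14, quartiles 4 and 28). A match describes letters only, and its absence concerns only these windows.

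SESN3 showed the largest change of the 4 genes. It stood at 5.62, 5.63 and 5.26 in the controls, at 8.19, 7.92 and 8.35 after 12 h of JQ1 and at 8.18, 7.65 and 7.93 after 24 h. All 6 JQ1 arrays were above all 3 controls, and control 3 was the lowest array. No background level was given for the arrays, so whether the control values of SESN3, or those of SESN1, lie above background is not known, and the folds are those of the deposited values. SESN3 rose 6.27-fold at 12 h (log2 difference 2.65, SE 0.16, limma adjusted p = 0.00011) and 5.32-fold at 24 h (2.41, SE 0.16, limma adjusted p = 9.79e-05). Only 1 of 14884 genes had a higher log2 difference at each time. The rise stayed past the threshold whichever array was left out, with log2 differences between 2.53 and 2.77 at 12 h and between 2.28 and 2.55 at 24 h. In order of level, the controls were lowest, the 24 h arrays next and the 12 h arrays highest, but the ranges at the 2 times overlapped; the 24 h minus 12 h difference was -0.24 log2 (95% interval -0.61 to 0.14, limma adjusted p = 0.873).

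SESN1 rose by less. Its values were 5.52, 5.63 and 6.22 in the controls, 6.56, 6.73 and 7.05 at 12 h and 6.44, 6.44 and 6.62 at 24 h. All JQ1 arrays lay above all controls, with control 3 the nearest to them, 0.65 log2 above the mean of controls 1 and 2. SESN1 was 1.99-fold higher at 12 h (log2 difference 0.99, SE 0.19, limma adjusted p = 0.0143) and 1.63-fold higher at 24 h (0.71, SE 0.19, limma adjusted p = 0.0411). The 12 h call was lost without control 1, control 2, or JQ1 12 h replicate 2 or 3 (limma adjusted p up to 0.0583). The 24 h call held only without control 3 and without JQ1 12 h replicate 3, and was lost when any other array was left out (limma adjusted p up to 0.146). Without control 3 SESN1 was 2.31-fold higher at 12 h and 1.89-fold higher at 24 h (limma adjusted p = 0.000302 and 0.00126). The 12 h and 24 h ranges overlapped, with a 24 h minus 12 h difference of -0.29 log2 (95% interval -0.71 to 0.14, limma adjusted p = 0.86).

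For both of these genes the direction did not depend on control 3. The groups did not overlap for 22.2% of all genes at 12 h and for 26.1% at 24 h, so that separation of the 3 JQ1 arrays from the 3 controls was common on these arrays. SESN1 had rank 69 of 14884 genes by log2 difference at 12 h and rank 282 at 24 h, counted from the highest.

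SESN2 was lower on average under JQ1, by an amount that rests on which controls are used. It stood at 10.03, 9.98 and 6.74 in the controls, at 7.57, 7.55 and 7.61 at 12 h and at 7.59, 7.04 and 7.37 at 24 h. All 6 JQ1 arrays lay below controls 1 and 2 and above control 3. With all arrays SESN2 was not called (log2 difference -1.34, 95% interval -2.99 to 0.31, limma adjusted p = 0.349 at 12 h; -1.58, interval -3.23 to 0.07, limma adjusted p = 0.22 at 24 h). Without control 3 it was 5.38-fold lower at 12 h (log2 -2.43, SE 0.14, limma adjusted p = 7.92e-06) and 6.37-fold lower at 24 h (-2.67, SE 0.14, limma adjusted p = 4e-06). Without control 1 or control 2 the difference was smaller, down to -0.78 at 12 h and -1.03 at 24 h. Without control 3, 20.1% of all genes were called at 12 h, 9.57% higher and 10.5% lower, and 20.9% at 24 h, 9.61% higher and 11.3% lower. In that fit SESN2 had rank 22 of 14884 genes from the lowest log2 difference at 12 h and rank 19 at 24 h. The values at 12 h and 24 h overlapped, with a 24 h minus 12 h difference of -0.24 log2 (95% interval -1.89 to 1.41, and -0.52 to 0.03 without control 3).

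DDIT4 had a similar spread among the controls (range 3.70 log2, against 3.29 for SESN2) but a different course under JQ1. It stood at 10.30, 10.40 and 6.70 in the controls, at 8.49, 7.84 and 8.72 at 12 h and at 9.66, 9.07 and 9.86 at 24 h. Each JQ1 array lay between control 3 and the other 2 controls, and all 24 h arrays lay above all 12 h arrays. Against all 3 controls it was not called at 12 h (log2 difference -0.78, 95% interval -2.68 to 1.11, limma adjusted p = 0.694) or at 24 h (0.40, interval -1.50 to 2.29, limma adjusted p = 0.845). Without control 3 it fell at 12 h (log2 -2.0, SE 0.27, limma adjusted p = 0.000848), and at 24 h the sign turned to -0.82 log2 (95% interval -1.43 to -0.21, limma adjusted p = 0.0628). Leaving out control 1 or control 2 instead gave values up to -0.15 at 12 h and 1.03 at 24 h.

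**Figure D2:**
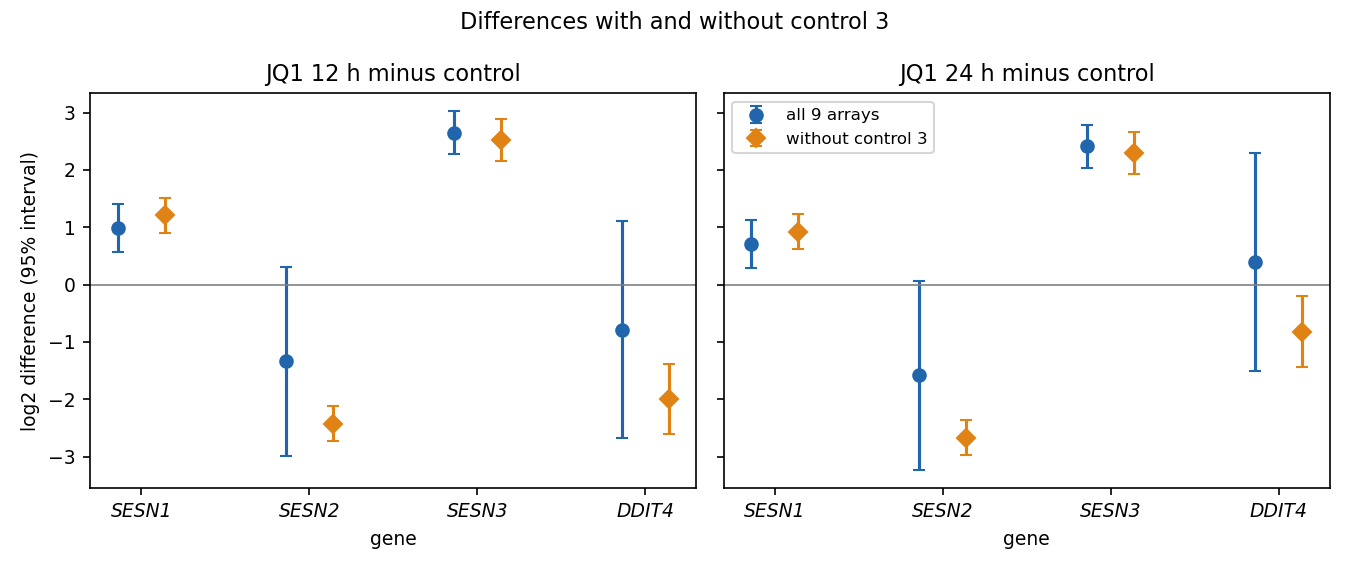
Log2 differences against control at 12 h (left) and 24 h (right) for each gene, with 95% intervals from limma; circles use all 9 arrays and diamonds leave out control 3. SESN3 and SESN1 stay above 0 in both fits, SESN2 at 12 h is at -1.34 for all arrays and at -2.43, with a narrower interval, without control 3, and DDIT4 at 24 h changes sign, with 0.40 for all arrays and -0.82 without control 3.

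The difference between the treatment times does not use the controls as a mean. DDIT4 was 2.27-fold higher at 24 h than at 12 h (log2 difference 1.18), rank 1 of the 14884 genes by log2 difference. The ranges at the 2 times did not overlap, which held for 12.9% of all genes. It was not called (SE 0.84, 95% interval -0.72 to 3.08, limma adjusted p = 0.874), in a fit whose spread for DDIT4 includes that among the controls. With the 6 JQ1 arrays alone the SE was 0.27 and the limma adjusted p 0.259, and without control 3 the adjusted p was 0.114. In this comparison 1 gene, 0.00672% of those tested, was called, and it was lower; without control 3, 0.148% were called, 0.0470% higher and 0.101% lower. SESN1, SESN2 and SESN3 each had small negative differences of -0.29, -0.24 and -0.24 log2 here, with overlapping ranges.

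**Figure D3:**
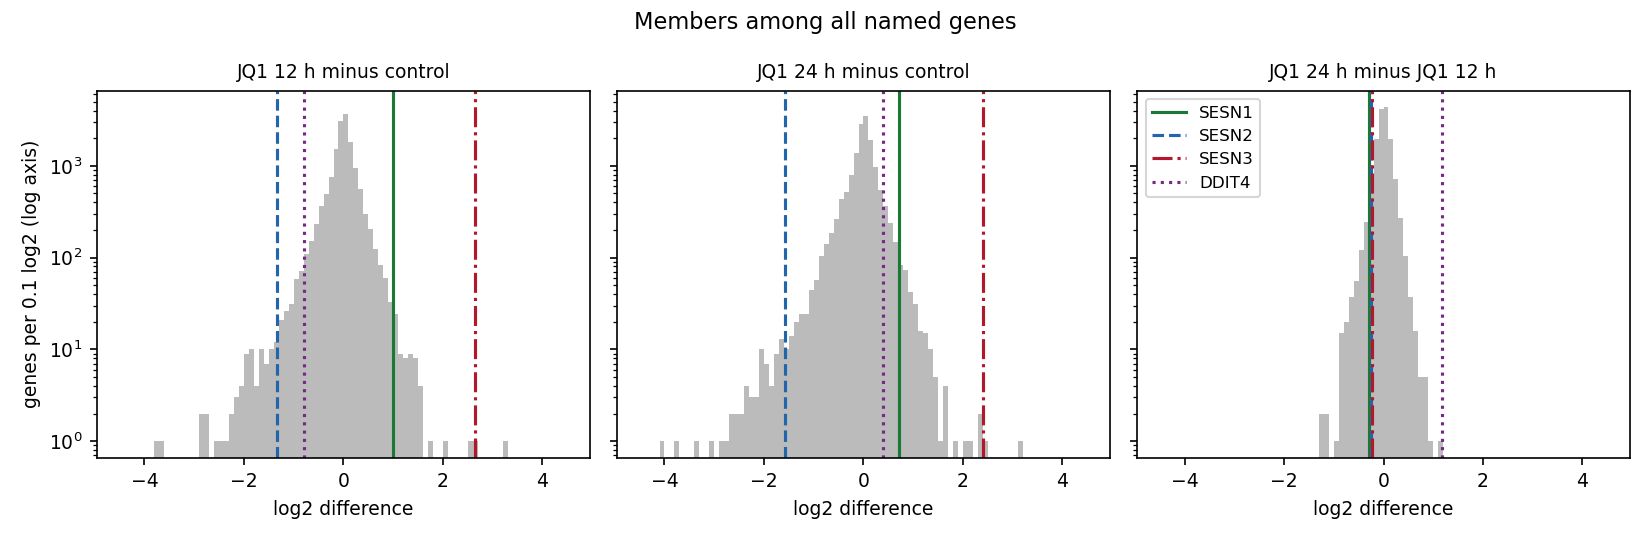
Distribution of log2 differences (horizontal axis) over the 14884 named genes (vertical log axis, genes per 0.1 log2) for the 3 comparisons, with lines at the 4 genes. SESN3 lies near the right end at both times, at 2.65 and 2.41, and DDIT4 is the rightmost gene in the comparison of 24 h with 12 h, at 1.18.

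The 4 genes also differed in direction between control 3 and the other controls. Against the mean of controls 1 and 2, DDIT4 differed by -3.65 log2, a 12.6-fold lower value and rank 6 of 14884 genes from the lowest. SESN2 differed by -3.27 log2, or 9.62-fold, at rank 8, and only 12 genes were more than 3 log2 lower. SESN3 differed by -0.36 and SESN1 by 0.65. These are differences of 1 array from the mean of controls 1 and 2, with no replicate of control 3. DDIT4L, the paralogue of DDIT4, stayed between 5.25 and 5.46 on all 9 arrays; identical readings such as its 5.32 on 4 arrays, or the 6.44 of SESN1 at 24 h, were frequent in the table, where any pair of arrays shared between 2124 and 2625 identical values of 53617.

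Stress response genes known as ATF4 targets were low on the same arrays as SESN2. The list held ATF3, TRIB3, ASNS, PSAT1, PHGDH, VLDLR and CTH among the named rows (7 of 16 listed). The median member lay 1.20 and 1.33 log2 above its own mean over the 9 arrays in controls 1 and 2 and at -0.63 in control 3; on the JQ1 arrays it lay between -0.36 and -0.22 at 12 h and between -0.48 and -0.43 at 24 h. All 7 members were lower in control 3 than in controls 1 and 2, with differences between -0.73 (PHGDH) and -3.09 log2 (CTH). Over all genes the median of this difference was -0.0067, and 261 genes were over 1 log2 lower. Among the other target lists, control 3 was also the lowest array for the median hypoxia-inducible gene (-0.58), FOXO target (-0.54) and p53 target (-0.24). It was not the lowest for glucocorticoid-inducible genes (-0.23). With all arrays, 1 of the 7 fell at 12 h and 2 at 24 h, and none rose. The median log2 difference was -1.18 and -1.42, against 0.01 for all genes at each time. Without control 3 all 7 fell at both times (median -1.61 and -1.80, against 0.01 for all genes). The share of all genes that fell was 4.39% and 6.34% with all arrays, and 10.5% and 11.3% without control 3.

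The members called with all arrays were PSAT1, an enzyme of serine synthesis, and at 24 h also TRIB3, a pseudokinase that inhibits AKT. PSAT1 stood at 11.93, 12.06 and 10.87 in the controls, at 10.23, 10.65 and 10.30 at 12 h and at 10.08, 10.54 and 9.98 at 24 h. Its lowest control exceeded all JQ1 arrays (log2 -1.23, SE 0.29, limma adjusted p = 0.0353 at 12 h; -1.42, SE 0.29, limma adjusted p = 0.0153 at 24 h). Such separation held for 22.2% of all genes at 12 h and 26.1% at 24 h, in either direction. TRIB3 differed by -1.87 at 12 h (limma adjusted p = 0.0633) and fell at 24 h (-1.97, SE 0.52, limma adjusted p = 0.0407). The PSAT1 call at 12 h was lost without any array except control 3 and JQ1 24 h replicate 2 (adjusted p up to 0.128), at 24 h when control 1 or 2 or JQ1 24 h replicate 1 or 3 was left out (up to 0.0716), and the TRIB3 call at 24 h without any array except control 3 (up to 0.136).

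Among transcription factors known to act on sestrins or DDIT4, 11 of 16 listed were among the named rows. None was called at 12 h, and 1 fell at 24 h, XBP1, the factor of the unfolded protein response (log2 -1.58, SE 0.34, limma adjusted p = 0.0187). XBP1 stood at 10.10, 10.16 and 8.61 in the controls, at 8.41, 8.39 and 8.41 at 12 h and at 7.91, 8.08 and 8.14 at 24 h. Even control 3 exceeded all JQ1 arrays, and groups did not overlap for 22.2% of all genes at 12 h and 26.1% at 24 h. The XBP1 call was lost when control 1, control 2 or one of the 24 h arrays was left out (adjusted p up to 0.0742). ATF4, named outside the rule after its values were seen, was not called (log2 -0.34 at both times, limma adjusted p = 0.402 and 0.352). It stood at 10.07, 10.09 and 9.21 in the controls, and between 9.43 and 9.49 on the JQ1 arrays. Without control 3, 4 of the 11 fell at 12 h and 6 at 24 h, and none rose. Of all genes, 10.5% and 11.3% fell in that fit, against 4.39% and 6.34% with all arrays. ATF4 fell at both times without control 3 (log2 -0.63, limma adjusted p = 0.000278 and 0.000254). The list's median was then -0.21 and -0.26, against -0.05 and -0.23 with all arrays. The factors that fell without control 3 were ATF4, ATF6, XBP1 and JUN at 12 h and also DDIT3 and NFE2L2 at 24 h. These were named here after their values were seen. FOXO1, FOXO3 and FOXO4, factors tied to SESN3, were called in none of these fits. The arrays measured RNA of the factors and not their activity.

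**Figure D4:**
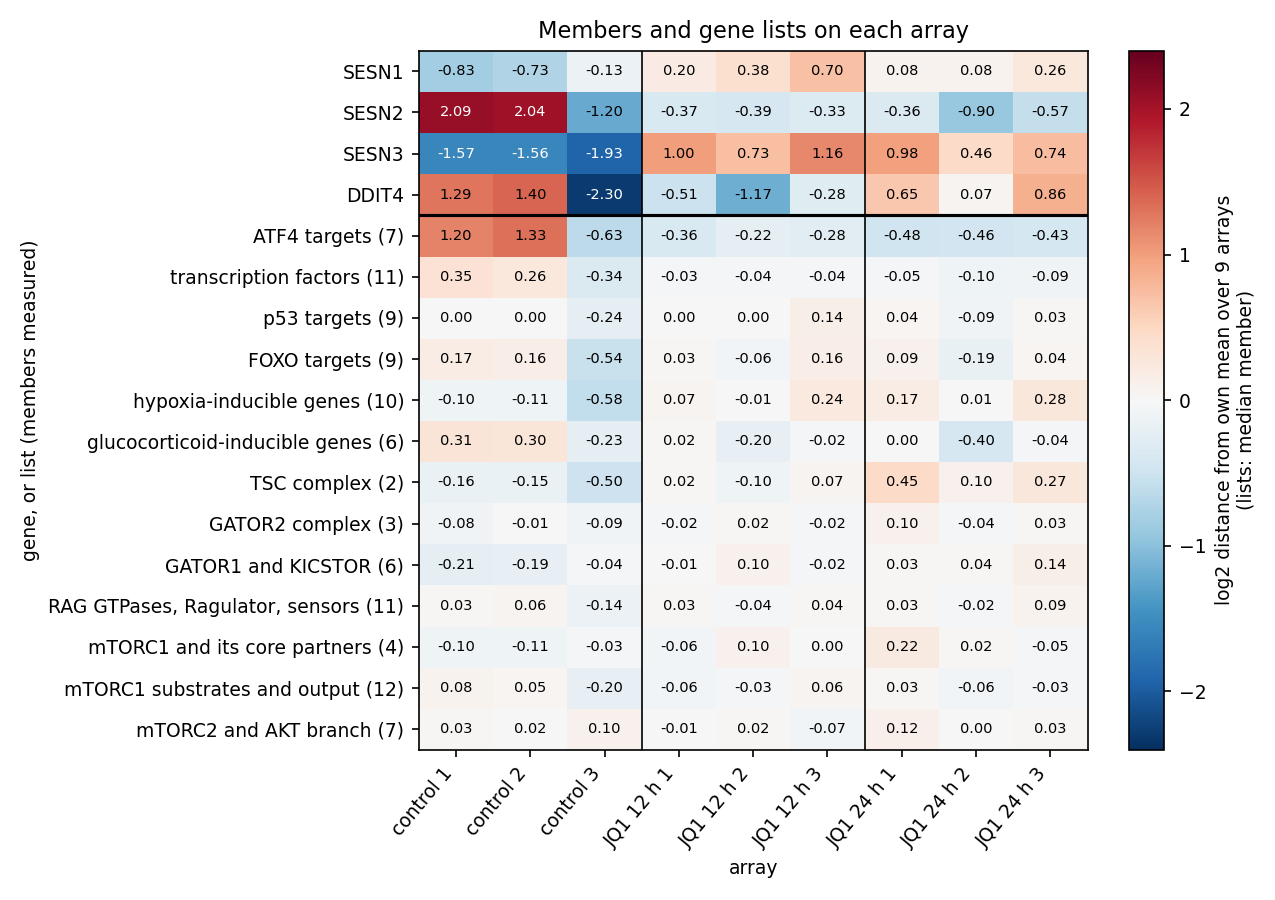
Log2 distance of each gene, or of the median member of each list, from its own mean over the 9 arrays (colour and printed value), with arrays in columns and lists in rows (members measured in parentheses). In the ATF4 target row controls 1 and 2 are at 1.20 and 1.33 and control 3 at -0.63, while SESN3 separates all controls from all JQ1 arrays.

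The counts of the other target lists with all arrays stand beside 7.93% of all genes called at 12 h and 11.5% at 24 h. Those without control 3 stand beside 20.1% and 20.9%. Of 9 p53 targets measured of 15 listed, 2 rose and 1 fell at each time (median 0.12 at 12 h and 0.08 at 24 h). CCNG1, a cyclin G, was higher by 0.68 log2 at 12 h and 0.51 at 24 h, the kinase PLK2 was 1.54-fold and 1.51-fold higher, and the polymerase gene POLK was 1.47-fold and 1.43-fold lower. Limma adjusted p-values were 0.00716 and 0.0176 for CCNG1, 0.0299 and 0.0278 for PLK2 and 0.0421 and 0.0431 for POLK. MDA-MB-231 carries mutant p53. Of 9 FOXO targets measured of 13, 2 rose at 12 h and 1 at 24 h, and none fell (median -0.11 and -0.02). CAT, the hydrogen peroxide-degrading catalase, was 1.68-fold higher at 12 h and 2.10-fold at 24 h (limma adjusted p = 0.0113 and 0.00171), and BCL2L11, the pro-apoptotic BIM, was 1.80-fold higher at 12 h (limma adjusted p = 0.0401) and 1.56-fold at 24 h (0.0863). Without control 3 the counts were 2 up and 2 down for p53 targets at each time, and 2 up and 3 down for FOXO targets at each time. The genes added were GDF15, a stress-induced cytokine (log2 -4.12 and -4.08), the FOXO targets FBXO32, TXNIP and KLF6 (-0.73 to -0.99), all lower and named after their values were seen, and BCL2L11 at 24 h, which was higher (0.93). The medians without control 3 were 0.08 at 12 h and 0 at 24 h for p53 targets and -0.17 and -0.25 for FOXO targets. POLK rested on the choice of row: with the mean of its rows it differed by -0.28 and -0.19 log2 and was not called (limma adjusted p = 0.152 and 0.314).

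Hypoxia-inducible genes, relevant to DDIT4, included 10 measured of 14, of which 2 rose at 12 h and 3 at 24 h and none fell (median 0.41 and 0.50). BNIP3, a mitophagy receptor, was 1.78-fold and 1.85-fold higher and the peptide hormone gene ADM 1.82-fold and 1.73-fold, and EGLN1, the oxygen sensor of the pathway, was 1.37-fold higher at 12 h (limma adjusted p = 0.0583) and 1.42-fold at 24 h (0.0308). Of 6 glucocorticoid-inducible genes measured of 7, none was called at either time (median -0.15 and -0.19). Without control 3 the hypoxia list had 3 up and 1 down at each time. The glucocorticoid list then had 1 up and 3 down at 12 h and 0 up and 2 down at 24 h. In that fit 20.1% of all genes were called at 12 h and 20.9% at 24 h. The medians without control 3 were 0.19 and 0.33 for the hypoxia list and -0.39 and -0.41 for the glucocorticoid list. The added hypoxia genes were EGLN1, higher at 12 h (0.58), and VEGFA, the angiogenic factor, which fell (log2 -2.30 and -2.43). VEGFA was named after its values were seen, as were, in the glucocorticoid list, FKBP5, higher at 12 h, DUSP1, lower at 12 h, and PER1 and KLF9, lower at both times. Of these target genes, CAT, BNIP3 and ADM kept their calls at both times whichever array was left out, as did CCNG1 at 12 h. POLK at both times and BCL2L11 at 12 h lost their calls without any array but control 3 (adjusted p up to 0.148). PLK2 at 12 h kept its call in only 3 of the 9 fits that left an array out, those lacking control 3, the first 12 h replicate or the second 24 h replicate (up to 0.112 otherwise). At 24 h, PLK2 lost its call when control 1, control 2 or one of the 24 h arrays was left out (up to 0.104). EGLN1 at 24 h did so for those same arrays and for JQ1 12 h replicate 2 (up to 0.121). CCNG1 at 24 h did so for control 1, control 2 and the 24 h replicates 1 and 3 (up to 0.0746).

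The TSC complex, through which DDIT4 acts, had 2 of 3 listed genes among the named rows, and TSC2, the subunit with the GTPase-activating domain, rose. TSC2 stood at 7.78, 7.81 and 7.67 in the controls, at 8.18, 8.08 and 8.15 at 12 h and at 8.53, 8.33 and 8.48 at 24 h. The 3 groups did not overlap, with the controls lowest and the 24 h arrays highest. Against control, groups did not overlap for 22.2% of all genes at 12 h and 26.1% at 24 h, and between the times for 12.9%. TSC2 was 1.31-fold higher at 12 h (log2 0.38, SE 0.08, limma adjusted p = 0.0197), a call lost without control 1, control 2, or JQ1 12 h replicate 1 or 3 (adjusted p up to 0.0679). At 24 h it was 1.62-fold higher (log2 0.70, SE 0.08, limma adjusted p = 0.00119), and this held whichever array was left out. The 24 h minus 12 h difference of 0.31 was not called (limma adjusted p = 0.458). TSC1, its scaffold partner, was not called (log2 0.15, SE 0.18, limma adjusted p = 0.739 at 12 h; 0.39, SE 0.18, 0.217 at 24 h). The list's median was 0.27 and 0.54, and 0.15 and 0.43 without control 3.

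The sestrin partner GATOR2 showed no called change. WDR24, WDR59 and SEH1L, the 3 of its 5 subunits among the named rows, had log2 differences of 0.09, -0.17 and -0.04 at 12 h (limma adjusted p = 0.659, 0.459 and 0.893) and of 0.19, -0.01 and -0.16 at 24 h (0.247, 0.981 and 0.406). The list's median was -0.04 at 12 h, and 0.08 without control 3, when WDR59 fell (-0.28, adjusted p = 0.0423). Of the GATOR1 and KICSTOR genes, which inhibit the RAG GTPases and hold GATOR1 at the lysosome, 6 of 7 were measured; 1 rose at 12 h and 2 at 24 h, and none fell (median 0.26 and 0.33, and 2 and 3 up without control 3, when the GATOR1 subunit DEPDC5, named after its values were seen, was added). Of all genes, 3.54% rose at 12 h and 5.17% at 24 h with all arrays. Without control 3, 9.57% and 9.61% rose, and 10.5% fell at 12 h. Both list genes that rose with all arrays were KICSTOR subunits. ITFG2 was 1.44-fold higher at 12 h and 1.40-fold at 24 h (limma adjusted p = 0.0396 and 0.0404), and KPTN was 1.31-fold higher at 12 h (0.0563) and 1.43-fold at 24 h (0.0149). ITFG2 lost its calls without any array except control 3 and JQ1 24 h replicate 1 (adjusted p up to 0.142), and KPTN at 24 h without control 1 or JQ1 24 h replicate 3 (0.0529 at most).

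With all arrays, the shares of genes called further down the pathway were close to those of all genes, 7.93% at 12 h and 11.5% at 24 h. Without control 3, 20.1% of all genes were called at 12 h, 9.57% higher and 10.5% lower. At 24 h that fit called 20.9%, 9.61% higher and 11.3% lower. Of 11 RAG GTPase, Ragulator and amino acid sensor genes measured of 16 listed, 1 rose at each time and none fell (median 0.06 and 0.04; 1 up and 3 down at 12 h and 1 up and 2 down at 24 h without control 3, when FLCN and FNIP1 were lower at both times and RRAGD at 12 h, and the medians were -0.05 and -0.0014). It was RRAGA, a RAG GTPase, at 8.47, 8.39 and 7.85 in the controls, 8.84, 8.90 and 8.91 at 12 h and 9.01, 8.77 and 9.01 at 24 h, or 1.56-fold and 1.61-fold higher (limma adjusted p = 0.0336 and 0.0197). Of 12 mTORC1 substrates and output genes measured of 16, 1 rose at each time and none fell (median -0.0036 and 0.0022; without control 3, 1 up and 3 down at 12 h and 2 up and 3 down at 24 h, when EIF4EBP1, TFE3 and GRB10 were lower at both times and EIF4B higher at 24 h, with medians of -0.10 and -0.12). These extra genes were named after their values were seen. The gene called with all arrays was EIF4EBP2, which encodes 4E-BP2, a repressor of cap-dependent translation that mTORC1 inactivates. EIF4EBP2 stood at 10.50, 10.54 and 10.94 in the controls, at 11.42, 11.46 and 11.27 at 12 h and at 11.31, 11.41 and 11.23 at 24 h, 1.65-fold and 1.58-fold higher (limma adjusted p = 0.00862 and 0.00963), and kept its calls whichever array was left out.

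MTOR, AKT1S1, DEPTOR and RHEB, the 4 core genes measured of 6, were not called at either time, with or without control 3 (median 0.10 at 12 h and 0.20 at 24 h). Of 7 mTORC2 and AKT branch genes measured of 14, none was called at 12 h and 1 fell at 24 h, the mTORC2 component PRR5L (1.41-fold lower, log2 -0.50, limma adjusted p = 0.011, and 0.0522 without JQ1 24 h replicate 3). Without control 3 that list had 1 up and 0 down at 12 h and 1 up and 1 down at 24 h. The added gene was IRS1, named after its values were seen. In that fit 20.1% of all genes were called at 12 h and 20.9% at 24 h. Of 9 AMPK genes listed, STK11, the kinase upstream of AMPK, was the 1 among the named rows and was not called (log2 -0.13 and -0.04). The RRAGA call at 12 h was lost without any array except control 1, control 3 and JQ1 24 h replicate 2 (adjusted p up to 0.105), and at 24 h without JQ1 24 h replicate 1 or 3 (up to 0.0818).

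**Figure D5:**
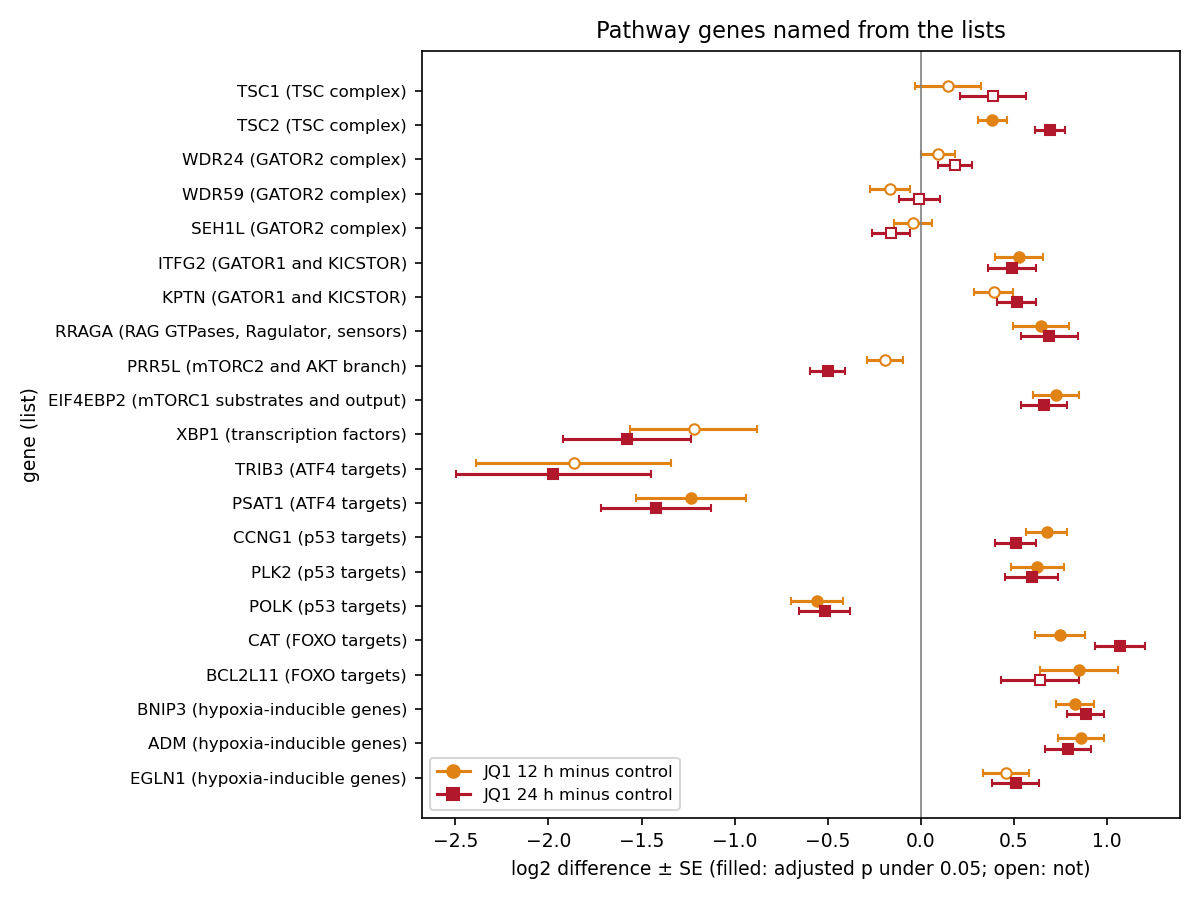
Log2 differences against control with SE (horizontal axis) for the genes named from the lists (vertical axis), at 12 h (circles) and 24 h (squares); filled symbols passed an adjusted p under 0.05. TSC2, EIF4EBP2, CAT, BNIP3 and ADM are among the genes filled at both times, and TRIB3, XBP1 and PSAT1 lie farthest to the left with the widest errors.

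The genes whose values over the 9 arrays were most like those of each member were found by Pearson correlation among 1992 genes with an SD of at least 0.3 log2. All genes share the same 9 arrays, so the coefficients describe these arrays only. Coefficients without control 3 use 8 of the arrays on which the genes were picked, and are no separate check. Nearest to SESN2 were CTH, an enzyme that makes cysteine (r = 0.998), the endothelin-converting enzyme ECE1 (0.998), ZBTB10 (0.992), the cysteinyl-tRNA synthetase CARS1 (0.991) and the arrestin-domain gene ARRDC4 (0.990). CTH stood at 9.35, 9.30 and 6.23 in the controls, at 7.05, 7.14 and 7.13 at 12 h and at 6.93, 6.59 and 6.97 at 24 h, with control 3 lowest as for SESN2. Without control 3 these 5 coefficients were 0.989 to 0.998 over 8 arrays.

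Nearest to SESN3 were the redox gene NXN (r = 0.995), the heparan sulfate proteoglycan SDC2 (0.991), the ubiquitin ligase MYLIP (0.988), the membrane scaffold EFR3B (0.987) and DGAT1, an enzyme of triglyceride synthesis (0.986). NXN stood at 6.78, 6.80 and 6.60 in the controls, at 8.14, 7.92 and 8.01 at 12 h and at 8.13, 7.72 and 7.95 at 24 h. Nearest to SESN1 were ABHD3 (r = 0.977), ZNF184 (0.974), TMEM50B (0.972), SLC60A2 (0.971) and the centrosomal gene CEP43 (0.971). ABHD3 stood at 6.04, 6.25 and 7.32 in the controls, at 7.68, 7.70 and 8.06 at 12 h and at 7.45, 7.44 and 7.41 at 24 h, with control 3 close to the JQ1 arrays.

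Nearest to DDIT4 were SEZ6L2 (r = 0.977), the TGF-beta-inducible factor KLF10 (0.967), CFAP263 (0.967), the oncostatin M receptor OSMR (0.963) and TCP11L2 (0.963), with coefficients of 0.924 to 0.969 without control 3. KLF10 stood at 9.96, 9.98 and 8.70 in the controls, at 9.15, 9.13 and 9.26 at 12 h and at 9.90, 9.70 and 9.91 at 24 h, so that its 24 h arrays lay above its 12 h arrays, as those of DDIT4 did.

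Genes next to the members along the chromosome (order from RefSeq, GRCh38.p14) included 3 called at 12 h and 2 at 24 h of 8, beside 7.93% and 11.5% of all genes. SESN3 lies on chromosome 11 between ENDOD1, which rose (1.73-fold at 12 h and 1.76-fold at 24 h, limma adjusted p = 0.0113 and 0.00727), and CEP57, which fell (1.41-fold and 1.58-fold lower, limma adjusted p = 0.0267 and 0.00603). The CEP57 call at 12 h was lost when control 1 or 2 or JQ1 12 h replicate 1 or 2 was left out (adjusted p up to 0.101). Beside DDIT4 on chromosome 10, the mitochondrial calcium channel gene MCU was 1.40-fold higher at 12 h (limma adjusted p = 0.0383) and 1.25-fold at 24 h (0.117); its 12 h call was lost when control 1, control 2, an array at 12 h or JQ1 24 h replicate 3 was left out (up to 0.137). ANAPC16 on its other side, ATP5IF1 and MED18 beside SESN2 on chromosome 1, and ARMC2 and CEP57L1 beside SESN1 on chromosome 6 were not called at either time, with log2 differences between -0.28 and 0.31.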

How the data were processed

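Per the submitters' processing notes, the authors processed the arrays (Affymetrix Human Gene 2.0 ST, 1 per sample) with Transcriptome Analysis Console; its version, background correction, normalization and summarisation are not given in the sources used here. The authors deposited log2 values, a unit read from their range (2.01 to 13.88). Array medians differed by under 0.05 log2, and whether arrays were normalized to each other is not stated. Of 53617 rows, 16098 had 1 gene symbol in the platform table, 0 several and 37519 are unnamed here; all 16098 matched RefSeq by gene ID. The highest-mean row stood for each gene, leaving 14884 genes. limma 3.58.1 in R 4.3.3 fitted 1 mean per group to all 9 arrays, with empirical Bayes moderation (3.14 prior degrees of freedom) and Benjamini-Hochberg adjustment over all genes within a comparison. Fits were tested on simulated data. No filter on dim genes was applied.

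The 4 members, the lists and the tests were chosen with earlier results of these data known. From the lists, the text names genes called in either comparison with control (at most 4 per list, by size) and all measured TSC and GATOR2 genes; like genes are the 5 with the highest correlation, leaving out uncharacterised loci, small RNAs and antisense transcripts; neighbours are the nearest named genes. Alternatives were fits with only the groups compared, a variance trend, quantile normalization, dim genes left out, every row, the mean of a gene's rows, the replicate number as a block and each array left out; lists without control 3 were added after seeing the data. Same-numbered arrays deviated from their group means with correlations between -0.316 and 0.224, so the numbers were not taken as pairs.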

Additional observations from a re-analysis of the deposited data

How the results depend on the processing

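Among the 7 alternatives that kept all replicates of the groups compared, only quantile normalization could change a member's log2 difference. The others could change only its SE and adjusted p. Of 84 member differences recomputed under these 7 alternatives, 81 kept their direction and their side of the threshold. The 3 others were SESN1: with only the 2 groups compared it was not called at 12 h (log2 0.99, limma adjusted p = 0.0615) or at 24 h (0.71, 0.0827), nor at 24 h with every row of the table tested (0.71, 0.0917), where more rows enter the adjustment. The number of genes called with only the 2 groups compared was 577 at 12 h and 994 at 24 h, against 1181 and 1714 in the fit of all groups, and with every row 3 were called between 24 h and 12 h, against 1. Of 108 member differences with 1 array left out, 93 kept direction and side. Where that array belonged to the group not compared, the log2 difference could not change, only its SE and adjusted p. Leaving out each array in turn gave 543 to 2986 genes called at 12 h, 786 to 3111 at 24 h and 1 to 22 between the times, the highest always without control 3. The log2 differences then ran from 0.86 to 1.21 (12 h) and 0.57 to 0.92 (24 h) for SESN1, from -2.43 to -0.78 and from -2.67 to -1.03 for SESN2, from -2.0 to -0.15 and from -0.82 to 1.03 for DDIT4, whose 24 h sign turned without control 3. Near-zero differences also changed sign with an array left out: TSC1 at 12 h (-0.0432 to 0.245), SEH1L at 12 h (-0.119 to 0.0751), WDR59 at 24 h (-0.126 to 0.056, and 0.0143 with quantile normalization), ANAPC16 at 12 h (-0.19 to 0.17) and CEP57L1 at 24 h (-0.20 to 0.12). The cause was not tested. With the replicate block 967 genes were called at 12 h, 1478 at 24 h and 1 between the times, and SESN1 was called at both times (adjusted p = 0.00713 and 0.0117); the block changed no call of the 4 genes, and the arrays share only a number. Of the genes named beside the 4, ITFG2, RRAGA, PSAT1, TRIB3, XBP1, PLK2, POLK, BCL2L11, EGLN1, CEP57 and MCU lost at least 1 call under alternatives that kept all replicates of the groups compared. Signal over background was not given for these arrays, so whether low values, such as those of DDIT4L and the SESN3 controls, lie above background is not known.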
